A study of Mus musculus with 24 samples.

Results

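Genes that mark T lymphocytes of the intestinal epithelium were followed through RNA sequencing of the mouse distal jejunum. They were chosen by name, 10 of the 56691 genes listed in the count table, and each was counted. They were the CD3 subunits *Cd3e* and *Cd3g*, the constant region of the T cell receptor delta chain *Trdc*, the coreceptors *Cd4*, *Cd8a* and *Cd8b1*, the integrin chain *Itgae*, the receptor *Cd160*, and the granzymes *Gzma* and *Gzmb*. The study sequenced 24 mice of 9 to 11 weeks, 1 library per mouse, with 3 mice in each of 8 groups formed by sex, genotype and treatment. Genotypes were wild type and *Ptk6*-/-, a germline knockout backcrossed to C57BL/6 that removes the kinase PTK6 from every cell type, and mice were age-matched from different litters of 1 colony. Control mice drank regular water, and treated mice drank 100 mM succinate for 7 days, which tuft cells sense and which starts a type 2 immune response.

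Intraepithelial lymphocytes lie between the epithelial cells of the villus. Many carry CD8 as a pair of alpha chains, and a large share bear the gamma delta receptor, in contrast to most T cells of blood and lymph nodes. They are held in the epithelium by the integrin that *Itgae* and *Itgb7* encode, which binds E-cadherin, and they store granzymes for killing stressed or infected cells. Every value here is from whole tissue, where fewer cells of a type and less RNA per cell cannot be told apart. *Cd4* also marks helper and regulatory T cells of the lamina propria and lymphoid follicles, so it is not specific to the epithelium.

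Libraries held 8080321 to 52824743 counts (median 43017686.5). *Ptk6* itself was counted 7 to 61 times in *Ptk6*-/- libraries and 284 to 2405 times in wild type libraries. Replicate 1 of the male wild type controls and replicate 1 of the male *Ptk6*-/- succinate group gave 51.2% and 29.7% of their counts to the ribosomal gene *Rn18s-rs5*. The library labelled female wild type succinate replicate 2 held 18388 CPM of 8 heart muscle genes, against 16.1 to 218.9 in the other 23 libraries, and 74.3 CPM of 4 Y-linked genes, against at most 0.971 in the other 11 libraries labelled female. The lung gene *Scgb1a1* had 209 to 404 counts in the 6 female *Ptk6*-/- libraries and in female wild type succinate replicate 3, and at most 9 in the others. The part of these features in the results was not tested. The 3 libraries named for ribosomal RNA, heart and Y-linked transcripts are called those that stand apart, and log2 fold changes without them are given after each comparison they enter.

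The labelled tissue held its T lymphocytes by these genes, since each had a mean of at least 79.7 counts per library, and 12 epithelial marker genes summed to 13574 to 28026 CPM (counts scaled to library size) in every library. Levels between genes were compared in FPKM, which corrects for length. *Gzma*, a trypsin-like granzyme, stood highest with a mean of 47.7 FPKM over the 24 libraries, followed by *Gzmb*, the granzyme that cuts after aspartate and can activate caspases, with 13.6. *Cd8a* had 2.82, *Cd3g* 2.52, *Cd3e* 2.05 and *Itgae* 1.85 FPKM. *Cd4* had 1.26, *Cd160* 1.03, *Trdc* 0.994 and *Cd8b1*, the beta chain of CD8, 0.907 FPKM. The ratio of *Cd8a* to *Cd8b1* FPKM was below 1 in male *Ptk6*-/- succinate replicate 1 (0.541) and female wild type succinate replicate 2 (0.945) and at least 1.86 in the other libraries.

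The lowest depth came from male *Ptk6*-/- succinate replicate 1, in which *Trdc* had 0, *Cd160* 6, *Cd8b1* 8 and *Cd8a* 10 counts, while *Gzma* had 622. A count of 0 allows up to 3 of its 8080321 counts for *Trdc*, a limit that covers counting error only. *Cd160*, on chromosome 3 from 96706079 to 96736667 in GRCm39, overlaps by 68 bases the epithelial gene *Pdzk1* on the opposite strand, which had 15190 counts per library against 162 of *Cd160*. *Itgae*, on chromosome 11 from 72981409 to 73038272, contains the kinase gene *Haspin* on the opposite strand, with 288 counts against 504. The libraries were stranded, but how strand entered the counting is not given in the sources used here, so reads of these pairs may be shared. The other members overlapped no gene above 3.38 counts per library.

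**Figure D1:**
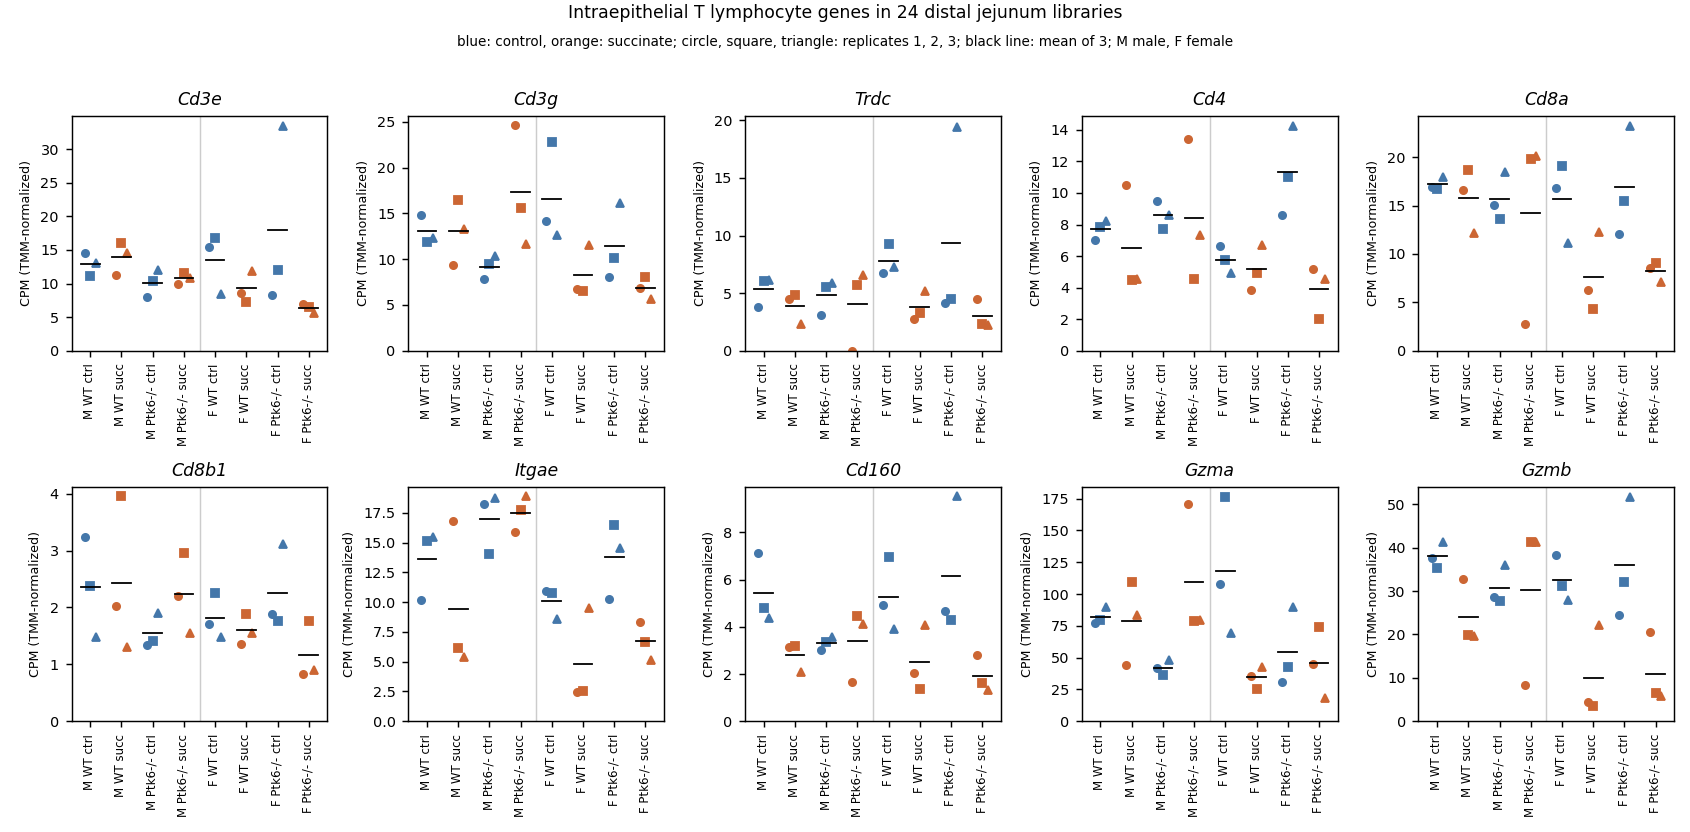
Normalized CPM (y axis, from 0) of the 10 genes in 24 libraries, by group (x axis). Blue points are controls, orange points succinate, symbols give replicates 1 to 3 and black lines the mean of 3. The lowest mean of each gene was in a female succinate group.

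Across the 8 groups, levels within a gene are given as CPM after TMM normalization. The mean was lowest in a female succinate group for 10 of 10 genes, in the *Ptk6*-/- females for 6 and in the wild type females for 4, and for 8 genes both female succinate groups were the lowest pair. The plot of levels by library shows how wide the groups were. Of 70 pairs of groups that neighbour each other in the order of means, 2 did not overlap, *Cd3e* between the female succinate groups (7.27 to 11.9 CPM in wild type, 5.58 to 7.01 in *Ptk6*-/-) and *Trdc* between the female (6.76 to 9.29) and male (3.80 to 6.12) wild type controls. The spread within groups was smallest for *Cd3e*, with a mean coefficient of variation of 0.257, and largest for *Trdc*, with 0.456, and *Gzmb*, with 0.441. Replicate 3 of the female *Ptk6*-/- controls held the highest value of 6 of the 10 genes, and replicate 3 of the female *Ptk6*-/- succinate group the lowest of 4.

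*Gzmb*, *Itgae*, *Gzma* and *Cd160* had the largest folds between their highest and lowest group means, 3.80, 3.62, 3.42 and 3.24. Promoters of the granzymes and *Cd160* are shown because they are among these 4 and because RUNX, T-box, STAT and AP-1 factors act on such genes in cytotoxic lymphocytes. RefSeq windows on GRCm38.p6, another build than that of the gene positions above, were found for 6 of the 10 members. The 250 bases before the start site are printed 5′ to 3′ on the strand of the gene, which is the minus strand for each, with capitals for motif matches on either strand. The RUNX motif searched was TGTGGT and the T-box motif was AGGTGT. For STAT the letters TTCNNNGAA were searched, for AP-1 TGANTCA, and for the TATA box TATAAA. The windows are chr13:113100982-113101231 for *Gzma*, chr14:56262335-56262584 for *Gzmb*, and chr3:96829352-96829601 (start 1) and chr3:96814522-96814771 (start 2) for *Cd160*.
Gzma: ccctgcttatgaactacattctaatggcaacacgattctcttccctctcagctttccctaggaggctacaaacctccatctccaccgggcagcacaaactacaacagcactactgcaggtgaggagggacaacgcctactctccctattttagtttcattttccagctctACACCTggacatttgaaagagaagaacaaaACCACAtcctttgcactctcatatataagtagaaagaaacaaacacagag
Gzmb: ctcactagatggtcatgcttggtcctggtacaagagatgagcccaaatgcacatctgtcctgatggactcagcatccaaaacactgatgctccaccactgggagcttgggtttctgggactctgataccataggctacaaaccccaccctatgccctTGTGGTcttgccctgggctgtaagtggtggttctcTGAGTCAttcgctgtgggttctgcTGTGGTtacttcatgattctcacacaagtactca
Cd160 start 1: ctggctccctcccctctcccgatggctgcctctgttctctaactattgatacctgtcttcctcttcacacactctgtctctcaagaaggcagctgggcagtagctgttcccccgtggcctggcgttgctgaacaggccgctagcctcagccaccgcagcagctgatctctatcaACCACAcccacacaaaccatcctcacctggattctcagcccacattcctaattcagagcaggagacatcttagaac
Cd160 start 2: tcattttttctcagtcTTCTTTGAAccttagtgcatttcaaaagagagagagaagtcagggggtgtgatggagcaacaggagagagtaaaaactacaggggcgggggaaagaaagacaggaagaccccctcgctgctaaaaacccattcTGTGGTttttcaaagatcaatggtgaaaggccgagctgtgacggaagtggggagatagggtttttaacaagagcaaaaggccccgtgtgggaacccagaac
Each of the 4 windows printed held at least 1 RUNX match, which 14.0% of 32851 windows of this length held. Of all 7 member windows 4 held one, and those of *Cd8a*, *Cd3g* and *Cd3e* did not. *Gzmb* had a pair of them, at -93 to -88 and -34 to -29 from the start site, and an AP-1 match at -58 to -52, found in 6.75% of windows. *Gzma* had a RUNX match at -50 to -45 and a T-box match at -80 to -75 (11.8% of windows and 3 of the 7 member windows, with *Cd3g* and *Cd3e*), and the second *Cd160* window a STAT match at -234 to -226 (7.02%). No TATA match (12.4% of windows) was in these 4 windows, and no motifs overlapped. A match describes the letters and not a bound site.

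A gene counted as called where edgeR's quasi-likelihood test gave a fold change of 2 or more and an adjusted p (Benjamini-Hochberg) under 0.05, and the 10 members passed the filter on low counts in each of 16 comparisons. The main test called 0 of 10 in every one of them. Results are therefore given as levels, as counts of genes whose 3 libraries lay entirely on one side of the other group's 3, and as medians, each beside the same over all genes tested.

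The succinate groups of females showed the lowest T lymphocyte levels. In wild type females given succinate, 10 of 10 genes had a mean below the controls, with a median log2 fold change of -1.03 against 0.03 for all 18872 genes tested, of which 47.7% were below 0. Of these, *Cd3g*, *Trdc*, *Gzma* and *Gzmb* had no overlap between the groups, 4 of 10 where 7.31% of all genes lay entirely lower. No member lay entirely higher (5.96% of all genes). In *Ptk6*-/- females the median was -1.29 against -0.04 for 19334 genes, of which 52.8% were below 0, again with 10 of 10 below the controls. There 7 of 10 lay entirely lower, against 10.1% of all genes, and 0 entirely higher, against 11.2%.

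Among the receptor genes, *Cd3g* had 14.2, 22.8 and 12.6 CPM in wild type control females and 6.78, 6.52 and 11.5 under succinate. It was lower in each treated library than in each control, with a log2 fold change of -0.98 (SE 0.36, edgeR adjusted p = 0.617). *Trdc*, whose product pairs with the gamma chain, had 6.76, 9.29 and 7.26 CPM in these controls and 2.78, 3.31 and 5.20 under succinate (log2 fold change -1.03, SE 0.35, edgeR adjusted p = 0.617). *Cd3e* in *Ptk6*-/- females had 8.27, 12 and 33.5 CPM in controls and 7.01, 6.47 and 5.58 under succinate. The groups did not meet, though control replicate 3 stood far above the others, and the log2 fold change of -1.52 (SE 0.51, edgeR adjusted p = 0.417) was -0.69 without that library.

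The 3 coreceptors lay entirely lower under succinate in *Ptk6*-/- females and overlapped in wild type females. *Cd4*, the coreceptor for MHC class II, had 8.62, 11 and 14.3 CPM in *Ptk6*-/- control females and 5.20, 2.01 and 4.53 under succinate, with no overlap and a log2 fold change of -1.55 (SE 0.41, edgeR adjusted p = 0.339). In wild type females *Cd4* overlapped, at 4.90 to 6.61 CPM in controls and 3.86 to 6.70 under succinate. *Cd8a*, the alpha chain of CD8, had 12, 15.5 and 23.2 CPM in *Ptk6*-/- control females and 8.54, 9.04 and 7.11 under succinate (log2 fold change -1.06, SE 0.31, edgeR adjusted p = 0.378). Its wild type values were 16.8, 19.1 and 11.2 CPM in controls and 6.27, 4.31 and 12.3 under succinate, so that 1 treated library lay inside the control range. The *Cd8a* means fell by a similar size, from 15.7 to 7.61 CPM in wild type and 16.9 to 8.23 in *Ptk6*-/- females. *Cd8b1* was the least separated, with 1.76 CPM in both the lowest *Ptk6*-/- control and the highest treated library (log2 fold change -0.98, SE 0.47, edgeR adjusted p = 0.492). Its means were 2.26 and 1.16 CPM there, and 1.81 and 1.60 in wild type females. Whether the *Cd4* effect differed between the genotypes was tested as the interaction in females, which gave -1.38 on the log2 scale (SE 0.53) and edgeR adjusted p = 0.752, with edgeR, DESeq2 and voom calling 0 of 10 and 1 of 10 at an unadjusted p under 0.05 (6.46% of all genes). The interaction was below 0 for 8 of 10 members (52.9% of all genes), and 0% of all genes were called.

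*Itgae*, which tethers the cells to E-cadherin, had 10.3, 16.4 and 14.5 CPM in *Ptk6*-/- control females and 8.36, 6.61 and 5.10 under succinate. The groups did not overlap (log2 fold change -1.06, SE 0.30, edgeR adjusted p = 0.372). *Cd160*, a receptor of intraepithelial and natural killer cells for HVEM, had 4.65, 4.27 and 9.53 CPM in these controls and 2.79, 1.60 and 1.31 under succinate. It was lower in each treated library (log2 fold change -1.72, SE 0.46, edgeR adjusted p = 0.345), and -1.26 without control replicate 3. In wild type females the treated replicates 1 and 2 had 2.43 and 2.56 CPM of *Itgae*, while replicate 3 had 9.53, within the control range of 8.57 to 10.9.

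*Gzmb* was the member that lay entirely lower under succinate in both female genotypes. It had 38.3, 31.2 and 27.9 CPM in wild type controls and 4.37, 3.60 and 22.2 under succinate (log2 fold change -1.67, SE 0.68, edgeR adjusted p = 0.626). *Ptk6*-/- females had 24.5, 32.2 and 51.6 CPM in controls and 20.6, 6.51 and 5.82 under succinate (log2 fold change -1.75, SE 0.54, edgeR adjusted p = 0.398). The treated groups lay below their controls in both genotypes, and in each of them 1 of 3 treated libraries was several times above the other two.

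*Gzma* was separated by succinate in wild type females and not in *Ptk6*-/- females. In wild type females it had 107.8, 176.5 and 69.4 CPM in controls and 35.6, 25.1 and 42.5 under succinate, with no overlap (log2 fold change -1.76, SE 0.40, edgeR adjusted p = 0.429). In *Ptk6*-/- females, controls had 30.9, 42.5 and 89.9 CPM and treated mice 44.6, 74.4 and 18.4, which overlapped widely. It was there the member with the smallest difference, -0.28 on the log2 scale, and 0.29 without control replicate 3. The interaction of genotype and succinate for *Gzma* in females was 1.51 (edgeR adjusted p = 0.752).

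The calls depended on the tool and on single libraries. In wild type females edgeR called 0 of 10, with 5 at an unadjusted p under 0.05 (7.77% of all genes) and 0% of all genes called, whereas DESeq2 called *Gzma* among 258 genes. Without treated replicate 3, edgeR called *Gzmb* (log2 fold change -2.98) and *Itgae* (-1.97) among 597 genes, a fit in which 1 of the 2 treated libraries is that with heart and Y-linked transcripts. Without that library, replicate 2, the median was -0.75 with 10 of 10 below 0, and edgeR called 0 genes. *Gzma* was then at -1.57, *Gzmb* at -1.27, *Trdc* at -0.94, *Cd3g* at -0.83 and *Cd8a* at -0.74. In *Ptk6*-/- females edgeR called 0 of 10, with 7 at an unadjusted p under 0.05 (10.7% of all genes) and 0.0879% of all genes called, whereas DESeq2 called *Cd4* and *Cd160* among 433 genes. The median was -0.73 without control replicate 3.

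**Figure D2:**
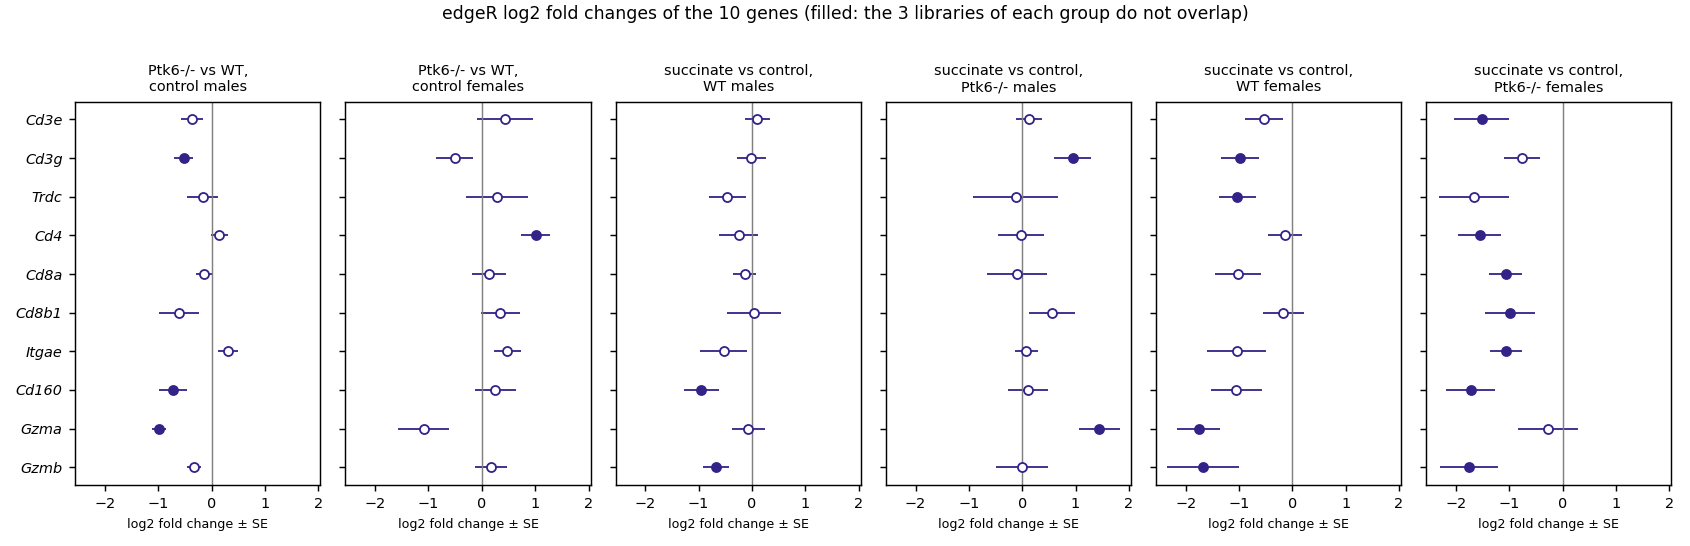
edgeR log2 fold changes (x axis) with standard errors for the 10 genes (y axis) in 6 comparisons. Filled points mark genes whose 3 libraries of each group do not overlap, and the points of both female succinate comparisons lie below 0 for each gene.

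In males under succinate fewer genes were separated. In wild type males the median log2 fold change was -0.19 against 0.02 for 19183 genes, and 8 of 10 were below 0 (47.5% of all genes). *Gzmb* and *Cd160* lay entirely lower, 2 of 10 against 4.15% of all genes, and 0 entirely higher, against 4.62%. *Gzmb* had 37.7, 35.4 and 41.4 CPM in controls and 32.8, 19.8 and 19.7 under succinate (log2 fold change -0.67, SE 0.25, edgeR adjusted p = 0.947). *Cd160* had 7.12, 4.78 and 4.35 CPM in controls and 3.16, 3.20 and 2.10 under succinate (log2 fold change -0.95, SE 0.33, edgeR adjusted p = 0.947). Both were lower in each treated male. edgeR called 0 of 10 and 0% of all genes, with 2 of 10 at an unadjusted p under 0.05 (4.07% of all genes), while DESeq2 called 0. *Itgae*, with 16.8, 6.15 and 5.40 CPM under succinate and 10.2, 15.1 and 15.5 in controls, was called by voom among 1498 genes and by edgeR without treated replicate 1 among 1077 genes. Without control replicate 1, a library that stands apart, the median was -0.19, *Gzmb* was at -0.64 and *Cd160* at -0.67, and 0 members were called.

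Treated *Ptk6*-/- males had higher CPM of *Cd3g* and *Gzma* than their controls. *Gzma* had 41.6, 36.2 and 48.3 CPM in controls and 170.6, 79.2 and 79.6 under succinate, above each control (log2 fold change 1.45, SE 0.38, edgeR adjusted p = 0.600). *Cd3g* had 7.80, 9.43 and 10.4 CPM in controls and 24.7, 15.6 and 11.7 under succinate (log2 fold change 0.95, SE 0.35, edgeR adjusted p = 0.600). These were 2 of 10 genes entirely higher, against 11% of all genes, and 0 lay entirely lower, against 12%. The highest values were those of replicate 1, the library of lowest depth, and without it the log2 fold changes were 0.89 for *Gzma* and 0.55 for *Cd3g*. In FPKM that replicate had 1.72 of *Cd3g*, below the controls at 2.08 to 2.35, so the groups overlapped. *Gzma* stayed entirely higher in FPKM, at 39.2 to 59.7 against 29.1 to 36.2.

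The other 8 genes overlapped in *Ptk6*-/- males, and the median of the 10 was 0.09 against -0.10 for 18966 genes, with 3 of 10 below 0 (57.1% of all genes). Without replicate 1 of the treated males, which stands apart, the median was 0.33 against -0.03, and 1 of 10, *Cd4* at -0.57, was below 0. edgeR called 0 of 10 and 0% of all genes, with 2 of 10 at an unadjusted p under 0.05 (7.75% of all genes), and DESeq2 and voom called 0. The sign of this median turned with the scaling, to -0.21 when libraries were scaled to 12 epithelial genes and -0.27 on log2(FPKM + 1) and -0.62 on log2(FPKM + 0.1), where the medians of all genes were -0.40, -0.45 and -0.77. With no filter on log2(FPKM + 1) it was -0.27 against -0.10.

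The sexes were set against each other in a comparison chosen after the values were seen, the difference in the succinate effect between females and males averaged over genotypes. Each of the 10 genes was below 0, with a median of -1.0 against 0.01 for 21694 genes, of which 49% were below 0. Of the members, *Cd3e*, *Cd3g*, *Gzma*, *Gzmb* and *Cd160* had an unadjusted p under 0.05, 5 of 10 against 8.27% of all genes. edgeR called 0 of 10 members and 0.0738% of all genes, while DESeq2 called *Cd3g* and *Gzma* among 207 genes. The smallest edgeR adjusted p was that of *Cd3g*, 0.183, at -1.32 on the log2 scale (SE 0.33). Without the libraries that stand apart the median was -1.09, *Cd3g* was at -1.13 and *Gzma* at -1.32, and edgeR called 0 genes. The median was smaller by voom (-0.74), scaled to 12 epithelial genes (-0.59 against 0.34 for all genes) and on log2(FPKM + 1) (-0.43 against 0.16), with each of the 10 genes below 0 in those fits.

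Averaged over the 4 strata of sex and genotype, 10 of 10 genes were lower under succinate, with a median of -0.54 against 0.00 for 21694 genes, of which 50.3% were below 0. *Cd160* came nearest to the threshold, with a log2 fold change of -0.90 (SE 0.22, edgeR adjusted p = 0.0502), and *Gzmb* had -1.02 (SE 0.30, edgeR adjusted p = 0.120). Over the alternatives, those with a single library left out aside, the adjusted p of *Cd160* lay between 0.00351 and 0.264. The test called 0 of 10 members and 0.728% of all genes, with 7 of 10 at an unadjusted p under 0.05 (16.1% of all genes). DESeq2 called *Gzmb* among 337 genes, and edgeR called *Gzmb* and *Cd160* among 539 genes without female wild type succinate replicate 3 and *Gzmb* among 230 without female *Ptk6*-/- succinate replicate 1. Without the 3 libraries that stand apart, the median was -0.49, *Gzmb* was at -0.80 and *Cd160* at -0.69 with edgeR adjusted p = 0.162.

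Between the genotypes, *Gzma* was lower in mean in *Ptk6*-/- than in wild type controls of both sexes. In control males, *Gzma* had 76.8, 79.9 and 89.8 CPM in wild type and 41.6, 36.2 and 48.3 in *Ptk6*-/- mice. Each *Ptk6*-/- male lay below each wild type male, with a log2 fold change of -0.98 (SE 0.13, edgeR adjusted p = 0.0206), which passed the adjusted p, as did 1.87% of all genes in this direction, and stayed short of the fold change of 2. Its adjusted p lay between 2.63e-08 and 0.930 over the alternatives, with 0.0684 after an offset for gene length and 0.0539 with the replicate number as a block, and between 0.0243 and 0.10 when 1 library was left out.

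*Cd160* had 3.01, 3.36 and 3.57 CPM in *Ptk6*-/- control males against 7.12, 4.78 and 4.35 in wild type males (log2 fold change -0.72, SE 0.26, edgeR adjusted p = 0.134). *Cd3g* had 7.80, 9.43 and 10.4 against 14.9, 11.9 and 12.3 CPM (log2 fold change -0.52, SE 0.18, edgeR adjusted p = 0.122). With *Gzma* these made 3 of 10 genes entirely lower in *Ptk6*-/- males, against 14.9% of all genes, while 0 lay entirely higher, against 16.5%, and 4 of 10 had an unadjusted p under 0.05, against 25.2%. In FPKM each of the 3 overlapped. Wild type replicate 1 had 26.5 FPKM of *Gzma*, 1.57 of *Cd3g* and 0.925 of *Cd160*. The *Ptk6*-/- males had 29.1 to 36.2, 2.08 to 2.35 and 0.988 to 1.02. The median of the 10 was -0.35 against 0.02 for 19218 genes, and 8 of 10 were below 0 (48.7% of all genes). It was 0.05 on log2(FPKM + 1), where the median of all genes was 0.25, and -0.11 against 0.29 when scaled to the epithelial genes. edgeR called 0.739% of all genes, and DESeq2 and voom called 0 of 10 members. Without wild type replicate 1, which stands apart, the median was -0.30, and *Gzma* was at -0.99 (edgeR adjusted p = 0.0243), *Cd160* at -0.44 and *Cd3g* at -0.38.

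In control females, *Gzma* had 107.8, 176.5 and 69.4 CPM in wild type and 30.9, 42.5 and 89.9 in *Ptk6*-/- mice (log2 fold change -1.09, SE 0.48, edgeR adjusted p = 0.452). Replicate 3 of the *Ptk6*-/- females lay inside the wild type range. Without it edgeR called *Gzma*, at -1.64 (adjusted p = 0.0368), among 1808 genes, and voom called it with all libraries, among 1972 genes. *Cd4* was the gene that stood entirely higher, with 8.62, 11 and 14.3 CPM in *Ptk6*-/- against 6.61, 5.72 and 4.90 in wild type females (log2 fold change 1.01, SE 0.27, edgeR adjusted p = 0.367), 1 of 10 against 8.51% of all genes, and 0 stood entirely lower, against 10.3%.

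The median of the members in control females was 0.27 against 0.04 for 19035 genes, with 2 of 10 below 0 (47% of all genes). It was -0.16 without *Ptk6*-/- replicate 3. edgeR called 0 of 10 members and 0.0158% of all genes, with 1 of 10 at an unadjusted p under 0.05 (11.1% of all genes), and DESeq2 called 0. Markers of lymphoid follicles leaned the same way beside *Cd4*, though none of them passed the test. All 16 B cell follicle genes had a positive log2 fold change (median 2.25), and 11 of 11 tested genes of naive and regulatory T cells were positive (median 1.14). The summed level of the follicle genes was 71.9 to 225.8 CPM in *Ptk6*-/- and 33.7 to 75.3 in wild type females, so that the groups overlapped. That of the naive and regulatory T cell genes was 14.0 to 29.9 against 9.21 to 11.8 CPM, with no overlap. The part of these lists in the *Cd4* result was not tested.

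Because *Gzma* and *Gzmb* are both cytotoxic granule proteases, their FPKM were set against each other within each library. The ratio of *Gzma* to *Gzmb* was 2.91, 3.22 and 3.10 in wild type control males and 2.08, 1.86 and 1.92 in *Ptk6*-/- control males. In control females it was 4.02, 8.07 and 3.54 in wild type and 1.80, 1.89 and 2.49 in *Ptk6*-/- mice. Thus the 6 *Ptk6*-/- control libraries lay below the 6 wild type control libraries. The ratio was picked after the values were seen and is a description with no test.

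Under succinate the ratio no longer separated the genotypes. It was 1.92 to 7.90 in wild type males, 2.74 to 30.1 in *Ptk6*-/- males, 2.74 to 11.6 in wild type females and 3.09 to 16.3 in *Ptk6*-/- females. Each *Ptk6*-/- succinate library was above each *Ptk6*-/- control library of its sex, and without male replicate 1, whose *Gzmb* had 30 counts, the male *Ptk6*-/- values were 2.74 in both libraries.

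**Figure D3:**
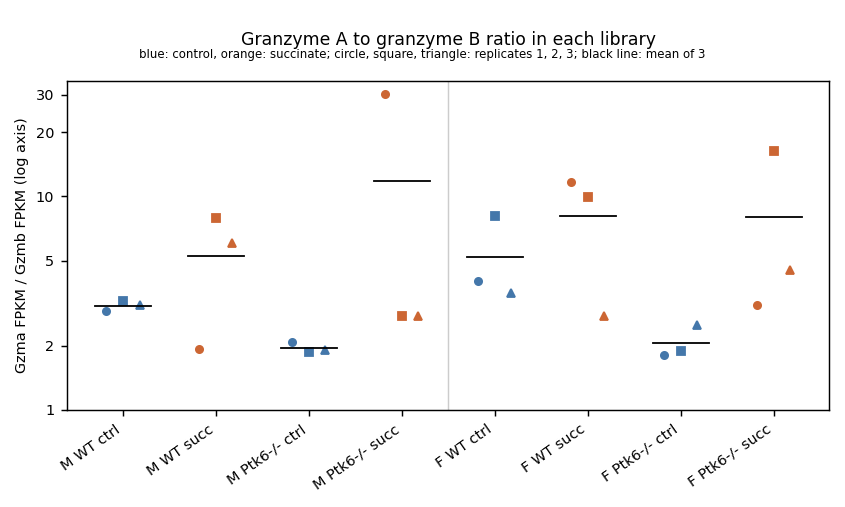
Ratio of *Gzma* to *Gzmb* FPKM (y axis, log axis) in each of 24 libraries by group (x axis), blue for control and orange for succinate, with black lines for the mean of 3. The 6 *Ptk6*-/- controls sit between 1.80 and 2.49, below the 6 wild type controls at 2.91 to 8.07.

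Other ratios of receptor genes overlapped between most groups. *Cd8a* to *Cd8b1* was 2.16 to 4.98 in wild type control males and 3.93 to 4.58 in *Ptk6*-/- control males, and 3.10 to 4.06 against 2.59 to 3.60 in control females. *Trdc* to *Cd3e* was 0.277 to 0.579 in wild type control males and 0.465 to 0.912 in wild type control females. *Cd4* to *Cd8a* was 0.555 to 0.646 in *Ptk6*-/- control females and 0.271 to 0.397 in wild type control females, with no overlap.

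Under succinate, 1 member separated the genotypes. In males the median was 0.34 against -0.03 for all genes, with 3 of 10 below 0 (52.7% of all genes), and 0 of 10 stood entirely lower or higher, against 5.88% and 2.78%. edgeR and DESeq2 called 0 of 10, with 0 at an unadjusted p under 0.05 (2.72% of all genes), while voom called *Itgae* among 1799 genes. Without the treated *Ptk6*-/- library that stands apart the median was 0.17. In females the median was -0.29 against -0.03, with 6 of 10 below 0 (52.9% of all genes), and *Cd3e* stood entirely lower in *Ptk6*-/- mice, 1 of 10 against 4.47% of all genes, while 0 stood entirely higher, against 6.31%. There edgeR, DESeq2 and voom called 0 of 10, with 0 at an unadjusted p under 0.05 (4.52% of all genes). edgeR called 0% of all genes in both sexes. Without the treated wild type female library that stands apart the median was -0.38 and *Cd3e* was at -0.71.

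In the interactions of genotype by succinate in each sex, sex by genotype in controls, and all 3 factors, edgeR called 0 of 10 members and 0% of all genes, and DESeq2 and voom called 0 members. For genotype by succinate in males, 0 of 10 were below 0 (56% of all genes), and *Gzma* had an unadjusted p under 0.05, 1 of 10 against 3.8% of all genes, at 1.51 on the log2 scale (SE 0.52, edgeR adjusted p = 0.993), and at 0.98 without the libraries that stand apart, where *Gzmb* (1.05) and *Cd160* (1.02) also had an unadjusted p under 0.05. For sex by genotype in controls, 1 of 10 was below 0 (46.6%), and *Cd4* had an unadjusted p under 0.05, 1 of 10 against 4.64%, at 0.87 (SE 0.30, edgeR adjusted p = 0.999). For the interaction of all 3 factors, 9 of 10 were below 0 (48.7%), and 0 had an unadjusted p under 0.05 (5.99%). Without the libraries that stand apart, the *Cd4* value was 0.89 for sex by genotype in controls and -1.43 for genotype by succinate in females, and *Cd160* had an unadjusted p under 0.05 for all 3 factors (-1.94).

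Averaged over strata, *Itgae* was higher in *Ptk6*-/- mice by 0.53 on the log2 scale (SE 0.22, edgeR adjusted p = 0.341) and lower in females by 0.77 (SE 0.22, edgeR adjusted p = 0.124). It had 18.2, 14.0 and 18.7 CPM in *Ptk6*-/- control males, the second highest group mean. For sex, 9 of 10 genes were lower in females, with a median of -0.35 against 0.03 for all genes (46.9% below 0), and edgeR called 0 of 10 and 0.36% of all genes, with 3 of 10 at an unadjusted p under 0.05 (15.3%). For genotype the median was -0.07, 7 of 10 were below 0 (53.3%), and edgeR called 0 of 10 and 0.0184% of all genes, with 1 of 10 at an unadjusted p under 0.05 (13.4%). DESeq2 and voom called 0 of 10 for both, and edgeR called *Gzmb* and *Itgae* for sex among 427 genes without female wild type succinate replicate 3. Without the libraries that stand apart *Itgae* was at 0.43 for genotype and -0.74 for sex, and the medians were -0.03 and -0.23.

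The wider T cell pathway was followed through lists of other genes. In females, the 19 tested genes of the receptor complex and its proximal signalling had median log2 fold changes of -0.62 in wild type (17 of 19 below 0) and -0.72 in *Ptk6*-/- mice (16 of 19) under succinate. Gamma chain constant regions were missing from this list, since the symbols searched were not found. *Trgc1* and *Trgc2*, at means of 6.21 and 7.27 CPM, were thus left out. By mean CPM, which grows with gene length, *Themis3* and *Bcl11b*, a T cell transcription factor, led this list. *Themis3* had a mean of 75.0 CPM, against 0.494 for *Themis* and 15.0 for *Lck* of the same list. Whether the *Themis3* RNA came from T cells was not tested. *Themis3* had log2 fold changes of -0.74 and -0.88 in the wild type and *Ptk6*-/- females, and *Bcl11b* -0.01 and 0.06. By mean FPKM *Themis3* (21.8) was followed by *Trbc2* (9.14), a constant region of the T cell receptor beta chain, while *Bcl11b* had 1.84. *Trbc2*, named after its values were seen, had log2 fold changes of -0.62 and -0.92. No gene of the list passed in either genotype.

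Cytotoxic granule genes and natural killer type receptors had a median of -0.69 in wild type (14 of 16 below 0) and -0.85 in *Ptk6*-/- females (16 of 17). *Ccl5*, a chemokine of cytotoxic cells, had a mean of 12 against 35 CPM in wild type and 9.24 against 33.6 in *Ptk6*-/- females, while *Fcer1g* differed by 0.23 and -0.17 on the log2 scale. The summed cytotoxic list overlapped in *Ptk6*-/- females, at 50.9, 55.7 and 211.1 CPM in control replicates 1 to 3 and 30.6 to 92.8 under succinate. In wild type females it was 80.6 to 142.2 CPM in controls and 52.9 to 78.1 under succinate. Genes of gamma delta and epithelial support had -0.49 (15 of 17) and -1.03 (16 of 17), with the epithelial butyrophilin-like gene *Btnl1* at -0.89 and -0.72 and the transcription factor *Hnf4a* at -0.46 and -0.79. Homing and residence genes had -0.19 (12 of 19) and -0.46 (14 of 19), with *Ccl25*, the epithelial chemokine for CCR9, at -0.99 and -0.66 and *Cdh1*, which encodes E-cadherin, at -0.36 and 0.27. In these lists edgeR called 0 genes in either female genotype. Without the library that stands apart, the wild type medians were -0.45 for the receptor list, -0.64 for the cytotoxic list, -0.40 for the support list and -0.03 for the homing list.

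In control males, edgeR called 0.739% of all genes. Of these lists it called 1 of 19 tested genes of the receptor list, 1 of 17 of the cytotoxic list, 1 of 17 of the support list and 0 of 20 of the homing list. *Trbc1*, a constant region of the T cell receptor beta chain, was lower in *Ptk6*-/- mice at 2.60 against 6.37 CPM (log2 fold change -1.31, SE 0.29, edgeR adjusted p = 0.0468), and *Nkg7*, a cytotoxic granule protein, at 3.89 against 8.38 CPM (-1.12, SE 0.26, edgeR adjusted p = 0.0498). *Btnl4* was higher, at 64.0 against 30.1 CPM (1.07, SE 0.12, edgeR adjusted p = 0.0167). Leaving out any 1 of the 6 libraries ended the calls of *Trbc1* and *Nkg7*, with edgeR adjusted p of 0.0642 to 0.151 and 0.0623 to 0.132. *Btnl4* was called in 2 of these 6 fits, without wild type replicate 1, which stands apart, or without *Ptk6*-/- replicate 1, over a range of 0.0171 to 0.09998. With the replicate number as a block the edgeR adjusted p was 0.0980, 0.104 and 0.0539 for *Trbc1*, *Nkg7* and *Btnl4*. The receptor list had a median of -0.59 with 16 of 19 below 0, and the cytotoxic list -0.61 with 13 of 17 below 0, and without wild type replicate 1 -0.45 (14 of 19) and -0.43 (12 of 17). The support list had a median of 0.03, and of its other genes *Hnf4g* passed the adjusted p but not the fold change, at 0.74 (edgeR adjusted p = 0.0310), as did *Cx3cl1* of the homing list at 0.65 (0.0460), and over the fits without 1 library the adjusted p was 0.0296 to 0.123 and 0.0249 to 0.137. Markers of other cell types passed by the same criterion, the macrophage gene *C1qa* at -0.73 (edgeR adjusted p = 0.0310) and the epithelial keratin gene *Krt18* at -0.63 (0.0356), both entirely lower in *Ptk6*-/- males, with 0.0238 to 0.123 and 0.0362 to 0.128 over the same fits. Their lists had medians of 0.03 (7 of 16 macrophage and dendritic cell genes below 0) and -0.29 (9 of 12 epithelial genes), with epithelial sums of 15335 to 21398 CPM in *Ptk6*-/- and 19323 to 23344 in wild type males, and their part in the T lymphocyte values was not tested.

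Other cell types moved beside the T lymphocyte genes in the succinate groups of females. Smooth muscle genes summed to 7797, 7582 and 4004 CPM in treated wild type females, whose T lymphocyte genes summed to 74.1, 60.9 and 127.5 CPM, against 3330 to 4240 CPM of muscle and 155.6 to 301.4 of T lymphocyte genes in the controls. Epithelial genes summed to 13574 to 21133 CPM there and to 25543 to 27132 in the controls. Treated replicate 3 lay inside the control range of smooth muscle, while the epithelial sums did not overlap. In *Ptk6*-/- females both overlapped, smooth muscle at 3810 to 5263 CPM under succinate and 2156 to 4730 in controls, and epithelium at 13896 to 19439 under succinate and 15671 to 28026 in controls. Over the 4 strata 1 of 8 smooth muscle genes rose, *Actg2*, an actin of enteric smooth muscle, by 1.12 (SE 0.26, edgeR adjusted p = 0.0355), and without the libraries that stand apart it was at 1.09 and not called (edgeR adjusted p = 0.120). The median of the 8 was 0.52, with 7 of 8 above 0. Scaled to 12 epithelial genes, the T lymphocyte median was -0.61 in wild type females, where the median of all genes was 0.46, with 8 of 10 genes below 0, and -1.19 in *Ptk6*-/- females with 10 of 10.

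Mast cell and tuft cell genes stood on the other side. Tuft cell genes had medians of 2.41 in wild type females and 2.70 in *Ptk6*-/- females, with 11 of 11 tested above 0 in both, and over the 4 strata 9 of 12 rose, among them *Trpm5* (1.56, edgeR adjusted p = 0.000170) and *Dclk1* (1.26, edgeR adjusted p = 0.00151). In *Ptk6*-/- females *Avil*, a tuft cell actin regulator, rose from 5.35 to 46.2 CPM (edgeR adjusted p = 0.0494). For sex by succinate averaged over genotypes, edgeR called *Dclk1* (2.13) and *Avil* (2.38), both with adjusted p = 0.0383. Neither was called without the libraries that stand apart. Mast cell genes summed to 32.6 to 155.2 CPM in treated wild type females and 86.5 to 855.6 in treated *Ptk6*-/- females, against 21.9 to 33.8 in female controls, and over the strata *Mcpt1* and *Mcpt2*, both mucosal mast cell proteases, rose by 2.83 and 2.45 (edgeR adjusted p = 0.00422 and 0.0196). Of the innate lymphoid list *Il17rb*, a subunit of the receptor for IL-25, rose by 1.31 (edgeR adjusted p = 0.00132). Without the libraries that stand apart 9 of 12 tuft cell genes, *Mcpt1* (2.83, edgeR adjusted p = 0.0316) and *Il17rb* (1.20) were called, and *Mcpt2* was not (2.45, edgeR adjusted p = 0.0516). In wild type males tuft cell genes summed to 111.0 to 157.3 CPM under succinate and 77.3 to 80.0 in controls. In *Ptk6*-/- males the sums overlapped, at 55.7 to 112.7 and 71.5 to 76.4 CPM. Mast cell genes summed to 30.3 to 36.0 against 23.9 to 27.5 CPM in wild type males. They overlapped in *Ptk6*-/- males, at 17.3 to 38.1 against 23.2 to 31.1 CPM.

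B cell follicle genes had a median of 2.00 in treated wild type females and -0.74 in treated *Ptk6*-/- females, the same sign as the T lymphocyte genes in the latter. Their sum was 93.0 to 196.5 CPM against 33.7 to 75.3 in controls in wild type and 39.1 to 266.4 against 71.9 to 225.8 in *Ptk6*-/- females, which overlapped. In male wild type mice it was 293.3 to 297.9 CPM under succinate and 51.2 to 234.8 in controls. The part of these cell types in the T lymphocyte results was not tested.

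**Figure D4:**
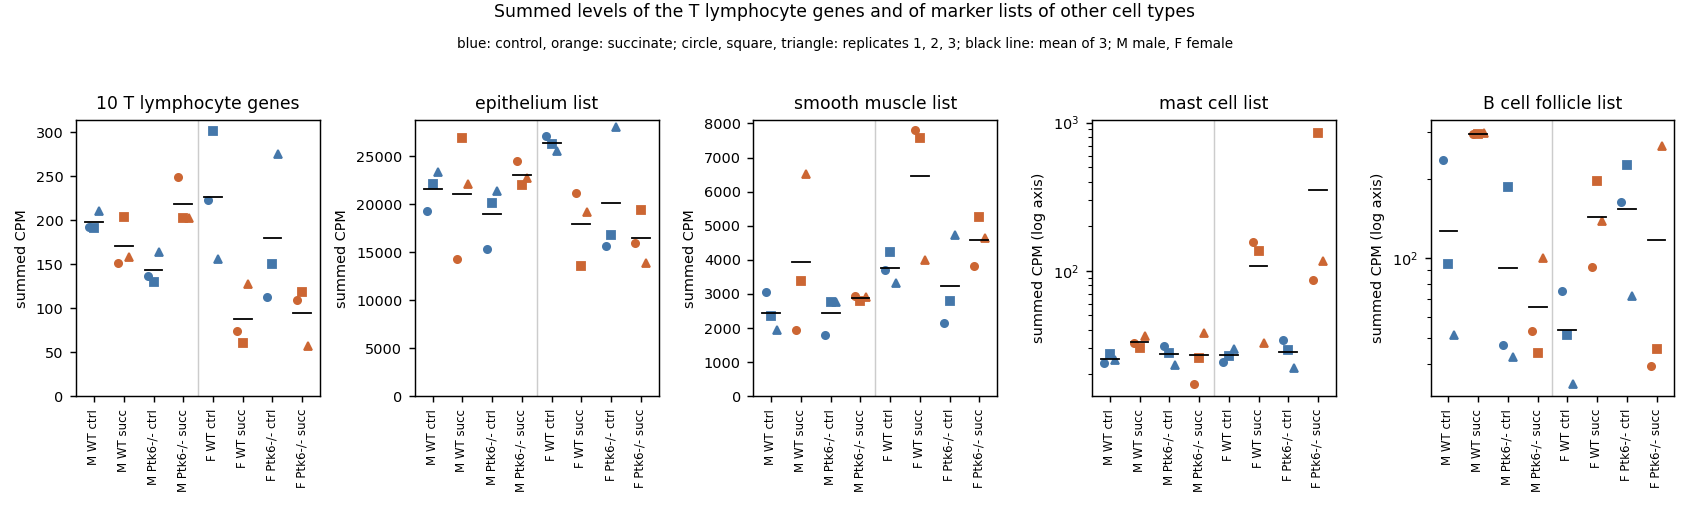
Summed CPM (y axis, a log axis for mast cells and B cell follicles) of the 10 T lymphocyte genes and of marker lists for epithelium, smooth muscle, mast cells and B cell follicles in 24 libraries by group (x axis), blue for control and orange for succinate, with black lines for the mean of 3. Treated wild type females 1 and 2, at 74.1 and 60.9 CPM of T lymphocyte genes, held 7797 and 7582 CPM of smooth muscle genes.

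The genes most like each member were found by Pearson correlation of log2(CPM + 0.5) over the 24 libraries, among 15516 genes with a mean of at least 1 CPM, as a description over points that share libraries, depth and treatment. The mean of the 10 standardized profiles was most like *Cd7* (r = 0.94), a surface protein of T and natural killer cells, then *Il18bp* (0.93), *C2* (0.92), *Prss30* (0.91) and *Trgc1* (0.90), a constant region of the T cell receptor gamma chain. *Cd160* was most like *Trgc1* (0.92), *B2m* (0.91) and *Trgc2* (0.88). *Gzma* was most like the immunoproteasome genes *Psmb9* (0.93) and *Psmb8* (0.92) and the MHC class II gene *H2-Eb1* (0.90), which *Cd3g* also had among its nearest (0.90) after *Nectin2* (0.92) and *Tnfaip8l2* (0.91).

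*Gzmb* was most like *Tapbpl* (0.95), which edits peptides for MHC class I, *Me2* (0.95) and *2010106E10Rik* (0.94). *Cd8a* was most like the intestinal homeobox gene *Isx* (0.90), *Hyal2* (0.89) and the chemokine *Cxcl10* (0.89), and *Cd3e* like *H2-DMb1* (0.86), *Lypd8* (0.85) and *Dhrs11* (0.85). *Trdc* was most like *Itm2b* (0.94), *Plpp1* (0.93) and *Fbxo8* (0.91), and *Itgae* like *Pik3ap1* (0.93), *Gbp8* (0.90) and *Pde5a* (0.90). *Cd4* was most like *Dmbt1* (0.85), *Myo7a* (0.83) and *Crtc1* (0.83). *Cd8b1*, the member with the fewest counts, had its nearest gene, *Prrt1*, at 0.69, below the nearest gene of each other member.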

How the data were processed

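RNA of the distal jejunum was sequenced in 24 mice. Per the submitters' processing notes the build was GRCm39 and the tools included FastQC and StringTie. The paper names Cutadapt, HISAT2, StringTie and ballgown. The program that counted reads is not given in the sources used here. The authors deposited whole-number read counts per gene, not normalized, and FPKM values, fragments per kilobase relative to the fragments mapped in the library. FPKM was used for levels between genes and for ratios within a library.

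Counts were tested with edgeR 4.0.16 (R 4.3.3, limma 3.58.1), by TMM normalization and the quasi-likelihood test, on genes that reached 10 counts in 3 or more libraries of the comparison, with Benjamini-Hochberg adjustment over all of them. Calls needed an adjusted p under 0.05 and a fold change of at least 2. Only the libraries of a comparison entered its fit. The paper used DESeq2, run here (1.42.0) as an alternative. Figures used matplotlib under Python 3.11.15.

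Other alternatives were DESeq2 size factors, the replicate number as a block, other filters (none, or every library at 10 counts), a gene length offset (natural spline, 4 degrees of freedom), scaling to 12 epithelial genes, voom with sample weights, limma on log2(FPKM + 1) and log2(FPKM + 0.1) with a mean FPKM of at least 0.5, no fold threshold, all 24 libraries in 1 fit, and leaving out libraries. The members and the 16 other gene lists (205 of 209 symbols found) were chosen with earlier results of these data known. Named were the members, list genes that were called and the 2 genes of highest mean CPM of a list, and the 3 genes most like each member (5 for their mean). Replicates are separate mice. Same-numbered libraries did not deviate together in every pair of any comparison, so numbers were not treated as pairs.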

Additional observations from a re-analysis of the deposited data

Results flagged for a closer look

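Both entries here come from the succinate effect within groups. In CPM, *Cd3g* was entirely lower under succinate in wild type females and entirely higher in *Ptk6*-/- males, and the log2 fold changes differed by 1.93 (0.95 in *Ptk6*-/- males and -0.98 in wild type females). *Gzma* showed the same opposition, with a difference of 3.21 (1.45 and -1.76). These groups differ in both sex and genotype, and this difference was not tested. Without replicate 1 of the *Ptk6*-/- males given succinate, the library of lowest depth, the male log2 fold changes were 0.55 for *Cd3g* and 0.89 for *Gzma*. That replicate had 1.72 FPKM of *Cd3g*, below the *Ptk6*-/- control males at 2.08 to 2.35, so in FPKM these groups overlapped. Without the library labelled female wild type succinate replicate 2, the female values were -0.83 and -1.57. In the test of sex by succinate averaged over genotypes, chosen after the values were seen, the edgeR adjusted p was 0.183 for *Cd3g* and 0.226 for *Gzma*.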

How the results depend on the processing

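No member was called by the main edgeR test in any comparison, and most alternatives also called 0. One member was called in control males with no fold threshold (*Gzma*). By voom, 1 was called in control females (*Gzma*), 1 for succinate in wild type males (*Itgae*) and 1 for genotype under succinate in males (*Itgae*). DESeq2 called 1 for succinate in wild type females (*Gzma*), 2 in *Ptk6*-/- females (*Cd4*, *Cd160*), 1 for succinate averaged over strata (*Gzmb*) and 2 for sex by succinate (*Cd3g*, *Gzma*). When 1 library was left out, 0 to 1 members were called in control females, for succinate in wild type males and for sex by succinate, and 0 to 2 for succinate in wild type females, succinate averaged over strata and sex averaged over strata. Of those calls with a library left out, most came without female wild type succinate replicate 3. Over all genes, calls in control females moved from 3 to 1808 without *Ptk6*-/- replicate 3 and to 1972 by voom, and in control males from 142 to 2 without *Ptk6*-/- replicate 3.

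With the replicate number as a block, alone or with the length offset, 0 members were called in every comparison. Over all genes the block called 5 genes in control males, all 5 among the 142, and 0 in control females and in *Ptk6*-/- females under succinate. The *Gzmb* genotype difference in control males, -0.33 in the main fit, was 0.10 on log2(FPKM + 1), with or without the filter, and 0.11 on log2(FPKM + 0.1). Wild type control replicate 1, which stands apart, had 37.7 CPM but 9.12 FPKM of *Gzmb*, against 19.6 and 22.5 FPKM in replicates 2 and 3. The cause of the change in sign was not tested. In male *Ptk6*-/- succinate replicate 1, *Trdc*, *Cd160*, *Cd8b1* and *Cd8a* had 0, 6, 8 and 10 counts, which limits the precision of their values there. Medians of the members kept their sign under DESeq2, DESeq2 size factors, the block, the length offset and no filter. On log2(FPKM + 1) the sign turned in control males (0.05) and wild type males under succinate (0.09), where the median of all genes was 0.25 in both, and in *Ptk6*-/- males under succinate (-0.27 against -0.45). Scaling to epithelial genes turned it in the last (-0.21 against -0.40). Each of these comparisons holds a library that stands apart. In these 4 fits, and on log2(FPKM + 0.1), the members stayed on the same side of the median of all genes as in the main fit, while with no filter on log2(FPKM + 1) they lay on the other side in *Ptk6*-/- males (-0.27 against -0.10) and wild type males (0.09 against 0.06) under succinate. By voom the sign turned in females for genotype under succinate (0.09) and genotype by succinate (0.36), and for genotype averaged over strata (0.06). Other interactions and genotype under succinate in males also turned on the FPKM scale.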
